A study of Mus musculus with 10 samples.

Results

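CD8+ T cells carrying a mutant form of Ikaros were compared with wild-type (WT) cells after stimulation through the T cell receptor. The comparison used 6 of the 10 libraries of the series, 3 from Ikaros-Zn4-/- cells and 3 from WT cells, chosen by genotype and time and not by any measured value. In each genotype, 2 of the 3 libraries were from cells stimulated for 30 min and 1 from cells stimulated for 120 min. Both genotypes were C57Bl/6 females aged 6 weeks. The cells were sorted from spleen as CD8+ cells of naive surface phenotype, with little or no CD44, and were stimulated with plate-bound antibodies against CD3 and CD28. The other 4 libraries, 2 per genotype, were from cells taken at 0 min without stimulation and served as a second set of cells in which the same difference could be read. The label Ikaros-Zn4-/- denotes mice homozygous for loss of zinc finger 4 of Ikaros. The labels name no Cre or promoter, so the mutation is taken to be present in all cells of these mice and not only in CD8+ T cells. The labels do not say that libraries of a group came from separate mice or cultures, so the p-values cover the spread between the samples at hand, which may be technical.

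Ikaros, encoded by Ikzf1, is a DNA-binding regulator of lymphocyte genes that contacts its sites through an array of N-terminal zinc fingers and joins chromatin remodelling complexes such as NuRD. The outer fingers of that array adjust which sites the protein occupies, while the central fingers carry the core contact with DNA. In T cells, loss of Ikaros function is known to lower the threshold for activation and to permit expression of genes of other lineages. Engagement of CD3 and CD28 induces immediate early genes within minutes, followed by cytokines, surface receptors and regulators of metabolism.

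The values are RPKM, reads per kilobase of transcript and per sequencing depth, as the authors deposited them for 12637 genes. Differences are given as log2(RPKM + 1) of mutant minus WT, so that a gene of low RPKM has a smaller log2 difference than its RPKM ratio would give. The 6 libraries held 5.77 to 11.6 M reads each, a depth recovered from the spacing of the deposited values, and the deeper library at 30 min was replicate 1 in both genotypes. Ikzf1 itself (chr11:11685003-11772926, GRCm38) stood at 156, 171 and 150 RPKM in the WT libraries (both of 30 min, then that of 120 min, the order used throughout). In the mutant libraries it stood at 240, 263 and 214 RPKM. The ranges of the genotypes did not overlap, but the difference of 0.58 ± 0.12 (SE) did not pass the test (limma, adjusted p = 0.101). RPKM of the whole gene cannot show the loss of a single zinc finger, so these levels do not check the genotype labels.

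Of the 12637 genes, 180 differed between the genotypes in stimulated cells (limma with time as a factor, Benjamini-Hochberg adjusted p below 0.05), which is 1.42% of the genes tested. In mutant cells 142 were higher (1.12%) and 38 lower (0.301%), and 128 of the higher and 25 of the lower genes differed by at least 2-fold on the RPKM + 1 scale. The median difference was 1.68 for the higher and -1.18 for the lower genes, against 0.02 over all genes. For all 180 genes the mutant libraries lay outside the WT libraries at both 30 and 120 min. Over all genes, such a separation was seen upward in 16.1% and downward in 12.9%. The call was made on these same 6 libraries, so the separation of the 180 genes is no further support for it. Protein-coding genes made up 93.3% of the 180, against 77.6% of all genes. The count leaned on every one of the libraries. No gene passed without WT 30 min replicate 1, WT 30 min replicate 2, the WT 120 min library or the mutant 120 min library, whereas 3 passed without mutant 30 min replicate 1 and 46 without mutant 30 min replicate 2. The direction of the 180 genes could not change in these 6 fits, because for each gene the genotypes were separated at both times. Without either 120 min library the genotype difference rests on the 30 min libraries alone. The 30 min libraries alone gave no call, with 1822 genes at an unadjusted p below 0.05, while a fit to reads recovered from the RPKM values (limma-voom) called 836 genes.

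**Figure D1:**
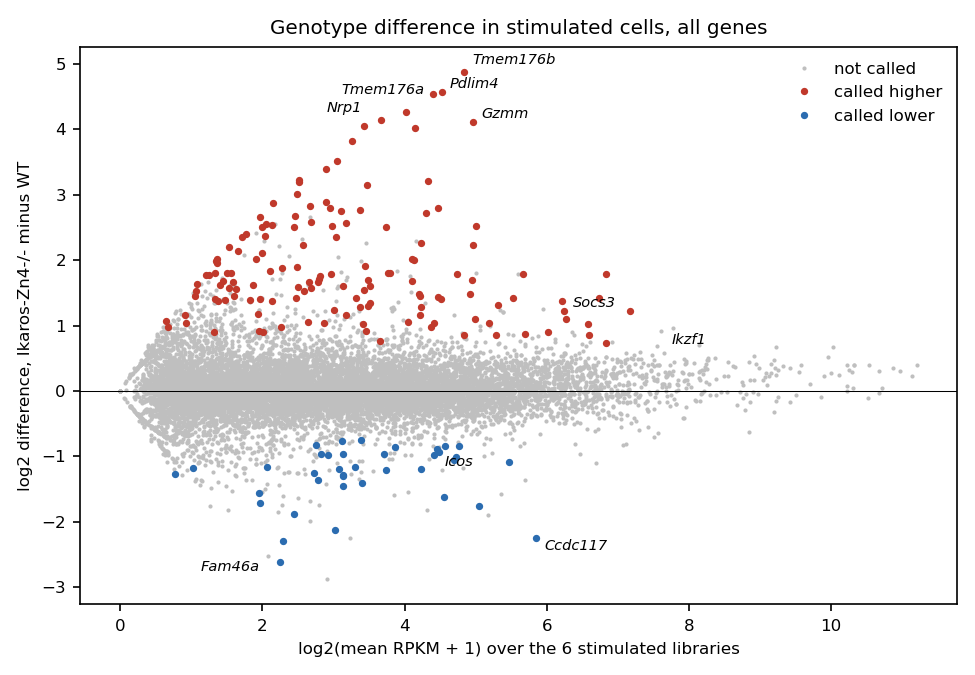
Genotype difference in stimulated cells (y axis, log2(RPKM + 1), Ikaros-Zn4-/- minus WT) against the level (x axis, log2 of the mean RPKM of the 6 libraries plus 1), 1 point per gene. Red points are the 142 genes called higher and blue points the 38 called lower; the largest upward differences reach 4.87 and the largest downward one among called genes is -2.62.

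The largest differences belonged to genes that were nearly silent in WT cells. In 51 of the 142 genes called higher, each of the 3 WT libraries stood below 1 RPKM. Over all 12637 genes, 1035 stood below 1 RPKM in each of these WT libraries. Of the 38 genes called lower, 4 stood below 1 RPKM in each mutant library. A gene below 1 RPKM in WT cells has little room to fall on the RPKM + 1 scale. The counts of higher and lower genes are therefore not compared. Tmem176b and Tmem176a, which encode related membrane proteins with 4 membrane-spanning segments, are neighbours read in opposite directions on chromosome 6. Tmem176b was at 0.716, 0.335 and 0.976 RPKM in WT cells. In mutant cells it was at 61.4, 80.5 and 21.4 RPKM. Every mutant library thus stood above every WT library, with a difference of 4.87 ± 0.44 (SE; limma, adjusted p = 0.0139). Tmem176a was at 0.617, 0.768 and 0.255 RPKM in WT cells, against 51.4, 52.8 and 14.9 RPKM in mutant cells. Its difference was 4.54 ± 0.29 (limma, adjusted p = 0.00561). The exons of the pair overlap by 81 bases and the library kit does not mark strand, so reads from that overlap cannot be assigned to either gene. The level in mutant cells was lower at 120 than at 30 min for both genes.

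Pdlim4, which encodes a PDZ and LIM domain protein that associates with the actin cytoskeleton (chr11:54054928-54069014), was at 0.977 and 0.671 RPKM in WT cells at 30 min and listed at 0 at 120 min. In mutant cells it was at 57.3, 61.6 and 11.1 RPKM, a difference of 4.57 ± 0.32 (limma, adjusted p = 0.00658). The promoters of these 3 genes, which had the largest upward differences, are shown because they can be searched for the core of the Ikaros recognition sequence. Each window runs from 250 bases before to 50 bases after a RefSeq transcript start (GRCm38.p6), is written 5′ to 3′ on the strand of the gene, and has in capitals each TGGGAA or its reverse complement TTCCCA. Tmem176b has 3 such windows and Tmem176a has 2, and 1 of each is printed, chosen so that they overlap and, for Tmem176a, so that the match is shown.
Tmem176b, chr6:48841325-48841624, minus strand: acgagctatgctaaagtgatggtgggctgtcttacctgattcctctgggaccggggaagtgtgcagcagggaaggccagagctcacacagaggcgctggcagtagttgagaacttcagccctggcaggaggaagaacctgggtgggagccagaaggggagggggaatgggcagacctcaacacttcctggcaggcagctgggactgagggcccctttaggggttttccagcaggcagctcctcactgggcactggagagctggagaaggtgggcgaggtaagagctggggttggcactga
Tmem176a, chr6:48841406-48841705, plus strand: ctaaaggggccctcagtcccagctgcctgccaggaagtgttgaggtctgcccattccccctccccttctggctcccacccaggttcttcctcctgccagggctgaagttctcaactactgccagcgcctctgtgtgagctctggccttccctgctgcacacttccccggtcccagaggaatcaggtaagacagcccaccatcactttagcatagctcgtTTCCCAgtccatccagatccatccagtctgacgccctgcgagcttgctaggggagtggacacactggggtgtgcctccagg
Pdlim4, chr11:54068968-54069267, minus strand: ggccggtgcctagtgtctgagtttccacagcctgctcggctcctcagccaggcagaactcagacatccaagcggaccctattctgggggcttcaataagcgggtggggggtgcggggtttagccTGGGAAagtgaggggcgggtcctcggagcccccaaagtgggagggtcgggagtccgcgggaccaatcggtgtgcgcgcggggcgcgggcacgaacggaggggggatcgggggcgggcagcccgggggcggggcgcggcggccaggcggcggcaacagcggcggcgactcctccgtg
The printed Tmem176b window holds 0 matches and the other printed windows hold 1 each, TTCCCA for Tmem176a and TGGGAA for Pdlim4. The Tmem176a match lies directly beyond the 5′ end of the printed Tmem176b window, so that 0 depends on where the window is cut. The other windows of Tmem176b, and the second window of Tmem176a (chr6:48841233-48841532), which also overlaps the printed Tmem176b window, hold 0. Among the 142 genes called higher, 100 had a window in the RefSeq table, and 34 of their 137 windows (24.8%) held the core on either strand. Among the 38 genes called lower, 25 had a window, and 9 of 30 windows (30.0%) held it. Over all genes tested the share was 22.6% (2231 of 9867 windows). These shares describe letters in a fixed window and say nothing of where Ikaros was bound.

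Several other strongly raised genes encode proteins of the cell surface. Nrp1, which encodes neuropilin-1, a co-receptor for semaphorins and vascular endothelial growth factor (chr8:128358604-128503363), was at 0.394, 0.320 and 0.339 RPKM in the WT libraries. It was at 24.6, 27.1 and 17.7 RPKM in the mutant libraries. The difference was 4.14 ± 0.16 (limma, adjusted p = 0.00343), the smallest adjusted p in the comparison together with Spry2 and Tmem204. Tmem204, which encodes a small membrane protein, was at 0.0942 to 0.469 RPKM in WT and 15.4 to 19.7 RPKM in mutant cells. Cd163l1, a member of the scavenger receptor cysteine-rich family, was at 0.249 to 0.574 RPKM in WT cells and 11.9 to 47.7 RPKM in mutant cells. Lilrb4, an inhibitory immunoglobulin-like receptor, was listed at 0 in 2 WT libraries and at 0.347 RPKM in the third, against 6.63 to 11.5 RPKM in mutant cells. Its near-identical paralog Gp49a was also called higher (2.56, adjusted p = 0.0182), and reads of the pair may be split between them.

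The other large upward differences were in genes of varied function. Gzmm, which encodes granzyme M, a serine protease of cytotoxic granules, was at 1.46, 1.87 and 3.82 RPKM in WT cells and 54.3, 82.4 and 37.6 RPKM in mutant cells. Mmp14, a membrane-bound matrix metalloproteinase, was at 0.0662 to 0.403 RPKM in WT cells and 15.1 to 24.8 RPKM in mutant cells. Pcsk1, a protease that processes prohormones, was at 0.852 to 1.26 RPKM in WT cells and 23.4 to 37.0 RPKM in mutant cells. All of these separated the genotypes without overlap, with differences of 4.12, 4.06 and 4.02. Cacnb3, a subunit of voltage-gated calcium channels, differed by 3.39 and Ctnnd2, a catenin of the p120 family, by 3.23, both from WT levels below 1 RPKM. Spry2, a feedback inhibitor of receptor tyrosine kinase signalling (chr14:105891947-105896819), was at 0.372, 0.412 and 0.228 RPKM in WT cells and 15.1, 12.8 and 14.9 RPKM in mutant cells (3.51 ± 0.14, limma, adjusted p = 0.00343).

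**Figure D2:**
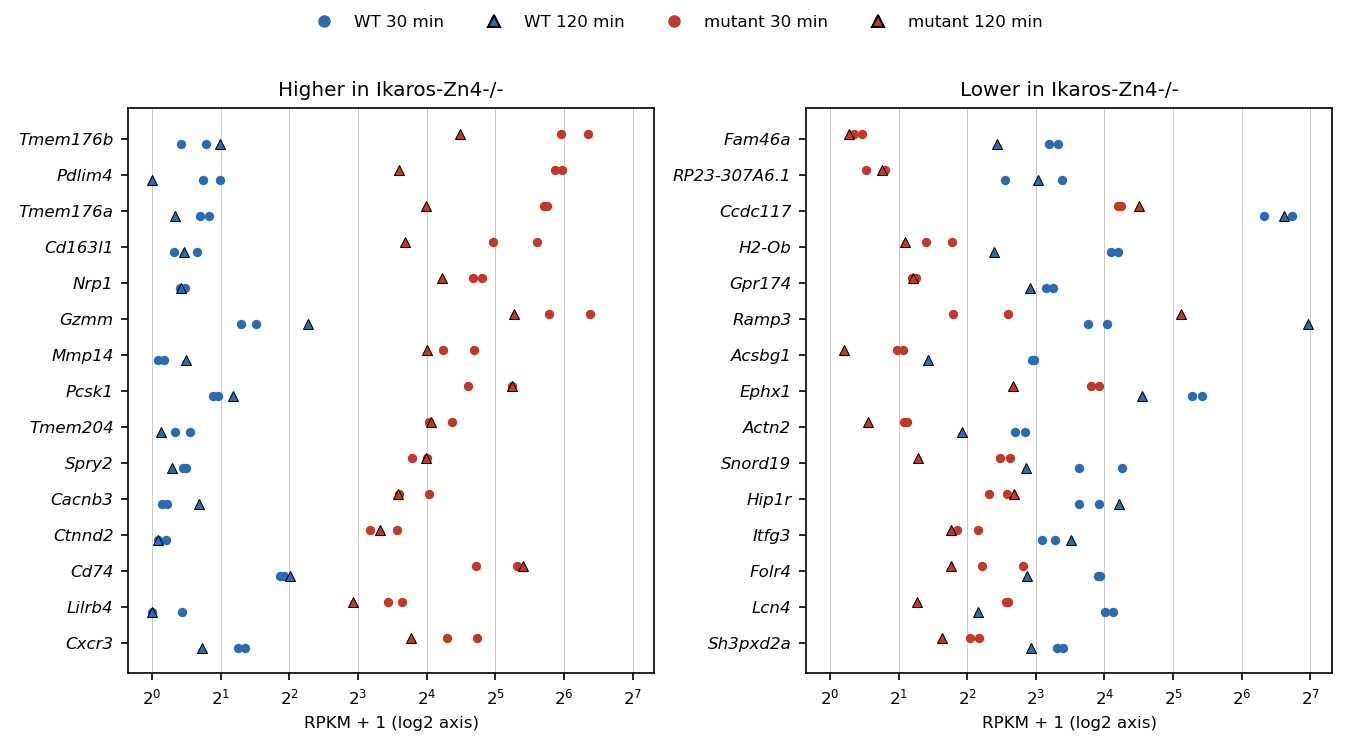
Levels of the 15 genes with the largest upward (left) and downward (right) difference among called genes, as RPKM + 1 on a log2 axis. Each symbol is 1 library (circles 30 min, triangles 120 min, with WT in blue and Ikaros-Zn4-/- in red). At each time the genotypes separate in every row, as the rule that picked these genes required.

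The genes called lower in mutant cells had a median difference of -1.18, against 1.68 for the higher genes. On the RPKM + 1 scale a downward step from a low WT level is limited, so the sizes are not compared further. The genes described here had a mean of at least 2 RPKM in WT cells, as the rule for naming genes required. Fam46a, a member of a family of non-canonical poly(A) polymerases (chr9:85320439-85327348), was at 8.97, 8.16 and 4.41 RPKM in WT cells. In mutant cells it was at 0.377, 0.274 and 0.210 RPKM, a difference of -2.62 ± 0.19 (limma, adjusted p = 0.0073). Ccdc117, which encodes a coiled-coil protein (chr11:5528887-5542187), was at 105, 79.5 and 96.9 RPKM in WT cells and 17.9, 17.3 and 21.7 RPKM in mutant cells (-2.24 ± 0.14, limma, adjusted p = 0.00539). Each WT library was thus several-fold above each mutant library. Gpr174, a receptor for lysophosphatidylserine, was at 6.51 to 8.49 RPKM in WT cells and 1.28 to 1.38 RPKM in mutant cells (-1.88). Ramp3, an accessory protein of calcitonin-family receptors, was at 12.5, 15.4 and 124 RPKM in WT cells and 2.48, 5.03 and 33.5 RPKM in mutant cells (-1.75). Ramp3 had its highest level at 120 min in both genotypes.

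Further genes called lower included H2-Ob, a chain of the class II chaperone H2-O, at 17.3, 16.1 and 4.26 RPKM in WT and 2.45, 1.65 and 1.14 RPKM in mutant cells. The acyl-CoA synthetase Acsbg1 differed by -1.71, the epoxide hydrolase Ephx1 by -1.62 and the alpha-actinin Actn2 by -1.57. Folr4, a folate receptor family member known as a surface protein of regulatory T cells, differed by -1.30 (adjusted p = 0.0491), which with H2-DMa was the value nearest the threshold among called genes, and lost its call in a fit with no intensity trend (0.0516). The first gene beyond the threshold had an adjusted p of 0.0501. Hip1r, an adaptor between clathrin and actin, differed by -1.40, but its exons overlap those of Vps37b on the other strand by 918 bases. The noncoding genes among the 15 largest downward differences were RP23-307A6.1, a long intergenic RNA (-2.29), and Snord19, a small nucleolar RNA (-1.46). A kit that selects longer fragments measures a small nucleolar RNA poorly, and Snord19 lost its call with limma-voom on recovered reads (adjusted p = 0.228) and with the spread of all 10 libraries (0.0834).

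Effector and memory genes of T cells were the list with the most called members, 6 higher and 1 lower of 20 measured. Over all genes 1.12% were called higher and 0.301% lower. The median difference of the list was 0.68, against 0.02 over all genes. The gene lists were chosen with earlier results of these data known, so no excess over these shares is read from the counts. Gzmm and Cxcr3 led the list. Cxcr3, a chemokine receptor of effector and memory T cells, was at 1.54, 1.39 and 0.660 RPKM in WT cells and 18.7, 25.6 and 12.6 RPKM in mutant cells (3.16 ± 0.16, limma, adjusted p = 0.00429). The transcription factors Eomes and Tbx21, which direct effector differentiation of CD8+ T cells, were both higher. Eomes was at 6.04, 5.42 and 1.90 RPKM in WT and 17.1, 20.1 and 10.6 RPKM in mutant cells (1.69), and Tbx21 at 1.25, 0.760 and 0.383 RPKM in WT and 4.67, 5.16 and 3.58 RPKM in mutant cells (1.62). Prdm1, which encodes the repressor Blimp-1, differed by 1.39, and Ly6a, which encodes Sca-1, by 1.83. Itga4, the alpha-4 integrin chain, was the lower member at 30.5, 34.9 and 19.7 RPKM in WT and 17.4, 16.2 and 9.55 RPKM in mutant cells (-0.93), and its exons overlap those of Cerkl on the other strand by 1124 bases. Not every effector gene was among them: Prf1, which encodes perforin, differed by -0.01 (adjusted p = 0.99), Ccl5 by 0.07 (adjusted p = 0.896) and Gzma by 2.07 (adjusted p = 0.117). Cd44, the marker used to exclude memory cells in the sort, was at 1.35, 1.75 and 1.67 RPKM in WT and 0.980, 0.972 and 1.11 RPKM in mutant cells.

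Cytokine and receptor lists held 1 or 2 called genes each, where 1.42% of all genes were called. Of 14 cytokine and chemokine genes 1 was called, Tnfsf11, which encodes RANKL. It was at 1.93, 1.31 and 7.16 RPKM in WT cells and 21.3, 8.53 and 72.5 RPKM in mutant cells (2.71 ± 0.36, limma, adjusted p = 0.0371). The median of the list was 0.49, and Tnf (0.43, adjusted p = 0.362), Ifng (1.62, adjusted p = 0.2) and Xcl1 (1.47, adjusted p = 0.265) did not pass. Of 24 cytokine receptors, Il18r1, a chain of the interleukin-18 receptor, was called at 7.17, 4.96 and 2.19 RPKM in WT against 44.5, 41.7 and 26.3 RPKM in mutant cells (2.81). Socs3, an inhibitor of cytokine receptor signalling, was the 1 call among 16 SOCS and STAT genes, at 40.6 to 48.8 RPKM in WT and 80.2 to 126 RPKM in mutant cells (1.22). Among 21 costimulatory and inhibitory receptors, Cd7 was higher (1.02) and Icos lower (-0.89). Icos, the inducible costimulator, was at 28.9, 28.7 and 24.5 RPKM in WT cells and 14.3, 13.2 and 15.5 RPKM in mutant cells. Its adjusted p of 0.0421 crossed the threshold under median ratio scaling (0.0529), quantile normalization (0.0509) and a fit with no intensity trend (0.0551).

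The Ikaros family gave calls in the upward direction only. Of its 5 members Ikzf3, which encodes Aiolos, and Ikzf2, which encodes Helios, were called higher, against 1.12% of all genes. Ikzf3 was at 24.1, 23.6 and 10.03 RPKM in WT cells and 50.9, 54.0 and 22.3 RPKM in mutant cells (1.10 ± 0.09, limma, adjusted p = 0.0122). Ikzf2 was at 1.98, 2.15 and 7.21 RPKM in WT and 5.46, 5.05 and 16.0 RPKM in mutant cells (1.04 ± 0.12, adjusted p = 0.0251). Ikzf4, which encodes Eos, was at 0.547, 0.802 and 1.89 RPKM in WT and 2.10, 2.28 and 4.59 RPKM in mutant cells and just missed the threshold (0.94, limma, adjusted p = 0.0513). Ikzf5 differed by -0.04 (adjusted p = 0.922). None of 28 genes of the NuRD, SWI/SNF and Polycomb complexes was called, and their differences ran from -0.38 to 0.28. A list of this size would often hold no call, with 1.42% of all genes called, and nothing is read from that count.

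Adhesion and guidance genes gave 5 higher and 1 lower of 28 measured, against 1.12% and 0.301% of all genes, with a median of 0.36. The list was chosen with earlier results of these data known, so no excess over these shares is read from it. Beside Nrp1 and the lower Itga4 described above, the catenins Ctnna1 (2.02) and Ctnnd1 (1.96), the integrin chain Itgb3 (1.71) and the tetraspanin Cd9 (1.35) were higher. Ctnnd1 was listed at 0 in both WT libraries at 30 min and at 0.0390 RPKM at 120 min, against 2.35, 1.99 and 5.09 RPKM in mutant cells. Ctnna1 was at 4.52, 5.20 and 7.98 RPKM in WT and 22.7, 27.6 and 29.6 RPKM in mutant cells, so both alpha and p120-type catenins stood higher in each mutant library. Of 18 antigen presentation genes Cd74 and H2-DMa, both of the class II pathway, were called higher, against 1.12% of all genes. Cd74, the invariant chain, was at 2.63, 2.80 and 3.04 RPKM in WT and 25.4, 38.9 and 41.4 RPKM in mutant cells (3.21). H2-DMa, a chain of the class II peptide exchange factor, was at 10.2 to 17.6 RPKM in WT and 32.0 to 63.3 RPKM in mutant cells (1.49, adjusted p = 0.0491). H2-DMa lost its call in a fit with no intensity trend (limma, adjusted p = 0.0551), and its exons overlap those of Brd2 on the other strand by 360 bases. The median of the list was 0.48, and 11 of its 18 genes were higher and none lower at an unadjusted p below 0.05. The list did not include H2-Ob, the class II gene described above, which was called lower (-2.13, limma, adjusted p = 0.041). Genes of the class I pathway did not pass either way, with differences of 0.86 for Psmb8, 0.71 for H2-Q6, 0.53 for Tap1 and 0.00 for H2-K1, and H2-Ab1 stayed at or below 1.91 RPKM in all 6 libraries.

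Of 37 type I interferon response genes 3 were called higher, Bst2 (1.10), Oasl2 (1.05) and Oas1a (0.92). Over all genes 1.12% were called higher, the share to set beside each list of this paragraph. The median of the interferon list was 0.24. Oasl1 (-1.23, adjusted p = 0.0819), Ifit1 (-0.18, adjusted p = 0.75) and Isg15 (0.46, adjusted p = 0.329) did not pass, and the near-identical Oas paralogs may share reads. Oas1a was not called with a pseudocount of 0.25 (adjusted p = 0.0561), under median ratio scaling (0.0574) or with the spread of all 10 libraries (0.0567). Among 18 apoptosis regulators Pmaip1, which encodes the BH3-only protein Noxa, was called, at 14.4, 13.6 and 2.41 RPKM in WT and 57.7, 57.5 and 41.4 RPKM in mutant cells (2.52). Its adjusted p of 0.0416 became 0.0527 with a pseudocount of 0.25 and 0.0511 under median ratio scaling. Igfbp4 was the 1 call among 21 naive and homing genes (1.79), whose median was -0.15.

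No call was made in several lists tied to T cell receptor signalling and its early response. With 1.42% of all genes called, lists of this size would often hold none, and nothing is read from these counts. None of 27 immediate early transcription factor genes passed, and 2 were higher and 4 lower at an unadjusted p below 0.05. Egr1 was at 90.1, 89.9 and 64.2 RPKM in WT and 94.7, 105 and 81.9 RPKM in mutant cells (0.21, adjusted p = 0.412), and Nr4a1 differed by -0.21 (adjusted p = 0.779). None was called among 25 genes of the receptor complex and its proximal kinases, 22 negative regulators, 18 NF-kB genes, 26 cell cycle genes, 22 glycolysis and nutrient transport genes, 26 ribosome biogenesis genes, 21 Notch pathway genes or 8 GIMAP genes. Spry2 was the only call among 18 feedback inhibitors of MAP kinase and growth factor signalling, where Dusp6 differed by 0.44 (adjusted p = 0.389) and Spry4 by -0.21 (adjusted p = 0.659). A p that misses the threshold does not show that these levels were equal. The T cell receptor alpha variable genes (56 measured) held no call and ran from -0.74 to 0.90, and 1 of 21 beta variable genes, Trbv29, was higher (1.42, adjusted p = 0.0175).

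**Figure D3:**
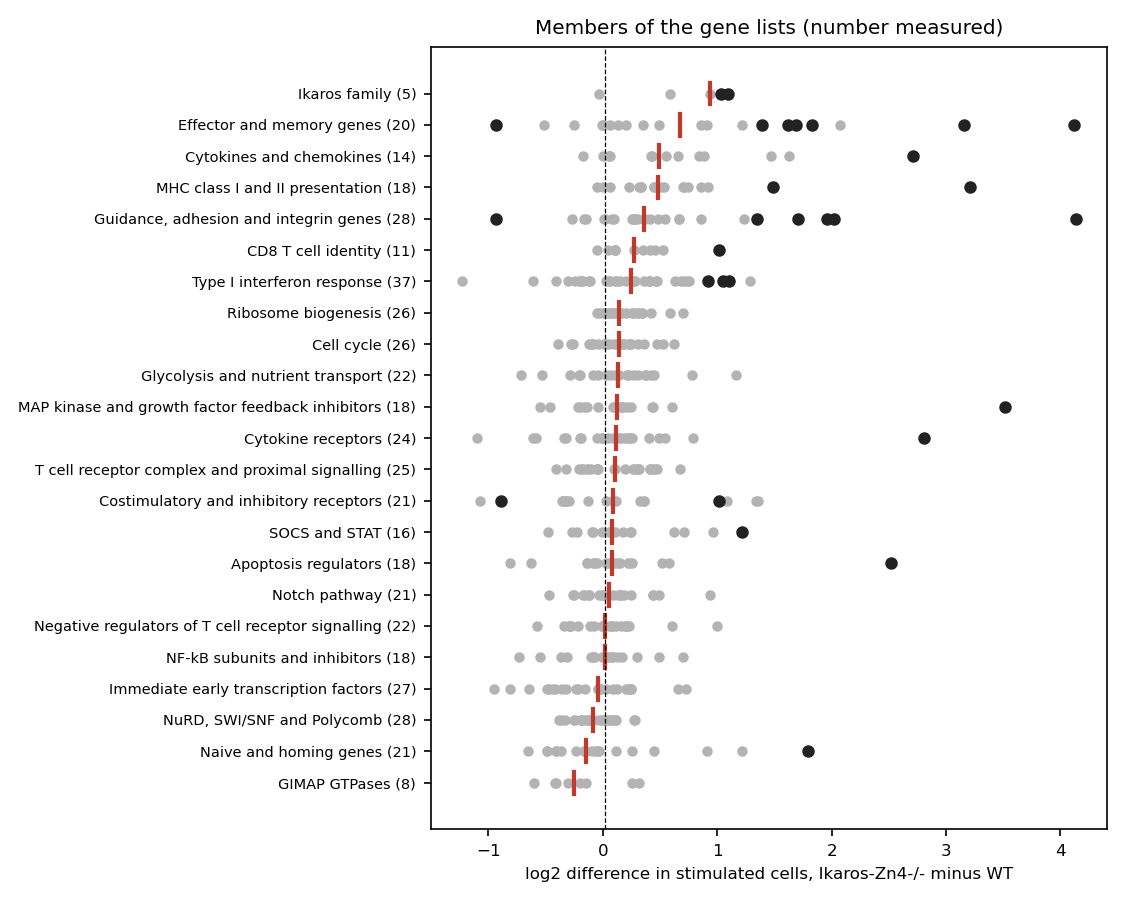
Differences of the members of each gene list with at least 5 measured genes (x axis, log2(RPKM + 1), Ikaros-Zn4-/- minus WT; number measured in parentheses). Black points are called members, grey points are not called, the red bar is the list's median and the dashed line is the median of all genes at 0.02; medians run from -0.25 for GIMAP GTPases to 0.94 for the Ikaros family.

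Markers of other cell types were read in the same libraries, with 1.42% of all genes called. Of 13 B cell markers 4 were measured and none was called, and their summed level was 76.7 to 339 RPKM in WT and 46.7 to 258 RPKM in mutant cells. Ighm was lower in the mutant libraries at both times (175, 239 and 38.7 RPKM against 278, 331 and 68.0 RPKM in WT), and Cd79b differed by -0.85 (adjusted p = 0.0725). Igkc went the other way, at 13.3 and 15.03 RPKM in mutant against 0.801 and 0 RPKM in WT cells at 30 min and 11.4 and 8.25 against 0.577 and 0.348 RPKM at 0 min, where it was called higher (limma, adjusted p = 0.0106). At 120 min Igkc was listed at 0 in both genotypes. Most of the summed B cell level was Ighm, and the part of B cell RNA in the difference of Cd74 was not tested. Of 16 myeloid markers 3 were measured, summing to 8.14 to 18.0 RPKM in WT and 8.59 to 34.2 RPKM in mutant cells, and none was called. Lyz2 reached 14.1 RPKM in mutant 30 min replicate 1 (1.10, limma, adjusted p = 0.558). Itgam was at 0.164 to 0.216 RPKM in WT and 0.869 to 1.47 RPKM in mutant cells (0.91, limma, adjusted p = 0.0662). Cst3 differed by 0.03 (limma, adjusted p = 0.938). Of 13 natural killer and innate-like T cell markers 2 were measured, summing to 1.16 to 6.57 RPKM in WT and 3.42 to 10.5 RPKM in mutant cells. Of 7 CD4 and regulatory T cell markers 3 were measured, summing to 13.4 to 36.1 RPKM in WT and 31.2 to 40.4 RPKM in mutant cells, and Ikzf2 was called higher (1.04) while Ctla4 (0.36) and Il2ra (0.16) were not called. Of 13 erythroid and platelet markers only Car2 was measured, at 0.852 to 3.28 RPKM in WT and 1.40 to 2.91 RPKM in mutant cells. The part of these marker genes in the differences above was not tested, and in bulk libraries more cells of a type cannot be told apart from more RNA per cell. Of 11 genes of CD8 T cell identity Cd7 was called, and Cd8a was at 226, 290 and 47.5 RPKM in WT and 292, 362 and 52.2 RPKM in mutant cells.

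The same genes were then read in unstimulated cells, whose 4 libraries take no part in the stimulated comparison. Of the 142 genes called higher after stimulation, 141 had a positive difference at 0 min, and of the 38 called lower 37 had a negative one. The median at 0 min was 1.66 for the higher and -1.01 for the lower genes, close to the 1.68 and -1.18 after stimulation. The genotypes did not overlap at 0 min for 139 of the higher genes, against 24.6% of all genes upward, and for 36 of the lower genes, against 20.3% of all genes downward. At 0 min 300 genes were called (2.37%), and 133 genes were called both at rest and after stimulation, 113 higher and 20 lower. They are 73.9% of the genes called after stimulation and 44.3% of those called at rest, and none was called in opposite directions. Leaving out 1 of the unstimulated WT libraries brought the count at rest to 69 (replicate 1) or 78 (replicate 2), and leaving out 1 of the unstimulated mutant libraries to 163 (replicate 1) or 112 (replicate 2). Dropping 1 of the WT libraries of 30 min, which enter through the shared spread, gave 158 (replicate 1) or 160 (replicate 2). With the spread of the 4 unstimulated libraries alone 34 genes were called at rest, so the shared count holds for the spread of all 10 libraries. The genes whose sign differed at rest were Gm12732 and Gm16550, both listed at 0 in mutant 0 min replicate 2.

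**Figure D4:**
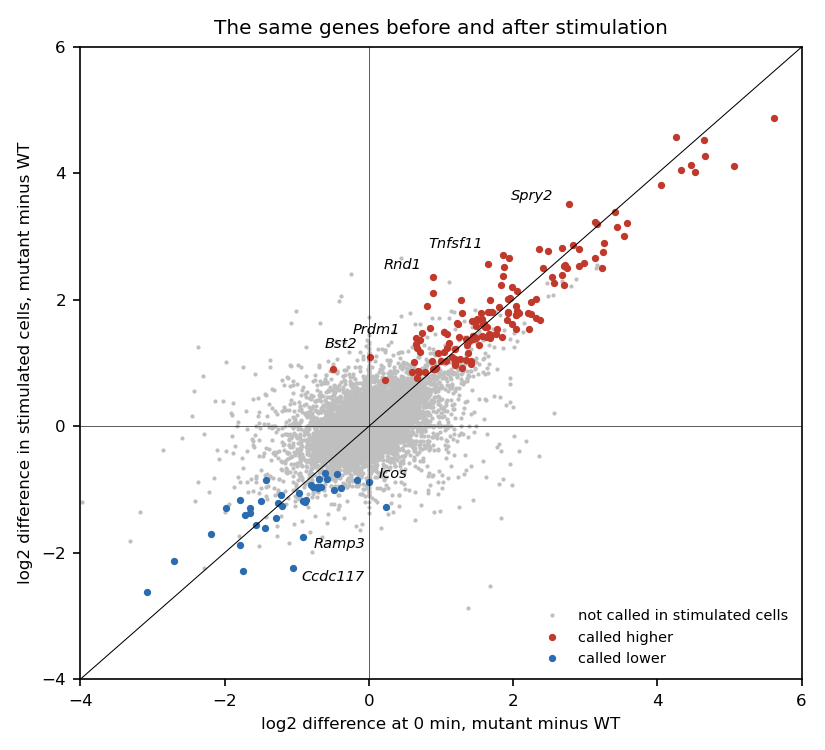
Genotype difference at 0 min (x axis) against that in stimulated cells (y axis), both log2(RPKM + 1) of mutant minus WT, 1 point per gene with the line of equality. Genes called higher (red) or lower (blue) after stimulation lie along the line, and Icos and Bst2 lie near 0 at rest.

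A test of the stimulated difference against the resting difference over all 10 libraries called no gene (limma, 687 genes at an unadjusted p below 0.05, smallest adjusted p = 0.889; limma-voom also called 0). Without mutant 30 min replicate 2 it called 3 genes. The values of 4 genes called in stimulated cells are given here as a description, since genes chosen by that call are no independent test of a difference between the states. Icos was at 8.04 and 10.9 RPKM in WT and 9.38 and 9.26 RPKM in mutant cells at 0 min, so the ranges overlapped at rest and separated after stimulation. Its stimulated minus resting difference was -0.88. Bst2, a membrane protein that tethers budding viruses, was at 90.0 and 84.8 RPKM in WT and 78.1 and 101 RPKM in mutant cells at 0 min, then at 69.5, 61.4 and 18.7 RPKM against 123, 134 and 50.2 RPKM after stimulation. Its stimulated minus resting difference was 1.08. Ccdc117 was at 47.0 and 29.2 RPKM in WT cells and 18.1 and 16.5 RPKM in mutant cells at 0 min. WT cells thus had higher Ccdc117 after stimulation than at rest while mutant cells stayed between 16.5 and 21.7 RPKM in all 5 libraries (-1.19). Prdm1 was at 0.441 and 0.287 RPKM in WT and 1.26 and 1.01 RPKM in mutant cells at 0 min, and at 0.782 to 1.02 RPKM against 3.09 to 5.84 RPKM after stimulation (0.75).

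Levels at rest and after stimulation differed in form between called genes. Spry2 was at 6.83 and 8.73 RPKM in mutant cells at 0 min and above 12 RPKM in each stimulated library, while WT cells stayed below 0.5 RPKM throughout. Tnfsf11 was at 0.125 and 0.0503 RPKM in WT and 3.12 and 2.78 RPKM in mutant cells at 0 min, and both genotypes had their highest level at 120 min. Pmaip1 stood at 22.8 and 22.2 RPKM in mutant cells at 0 min and 41.4 to 57.7 RPKM after stimulation. In WT cells it was at 8.27 and 3.49 RPKM at 0 min and at 14.4, 13.6 and 2.41 RPKM after stimulation. Ramp3 was at 2.50 and 6.11 RPKM in WT and 1.68 and 1.61 RPKM in mutant cells at 0 min, so the ranges did not overlap at rest either. Rnd1, a gene chosen after its values were seen, was at 0.220 and 0.0379 RPKM in WT and 0.859 and 1.35 RPKM in mutant cells at 0 min. After stimulation Rnd1 was at 1.32 to 2.09 RPKM in WT and 11.6 to 14.0 RPKM in mutant cells (2.35 ± 0.17, limma, adjusted p = 0.00658), and its stimulated minus resting difference of 1.46 did not pass the test over all genes.

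**Figure D5:**
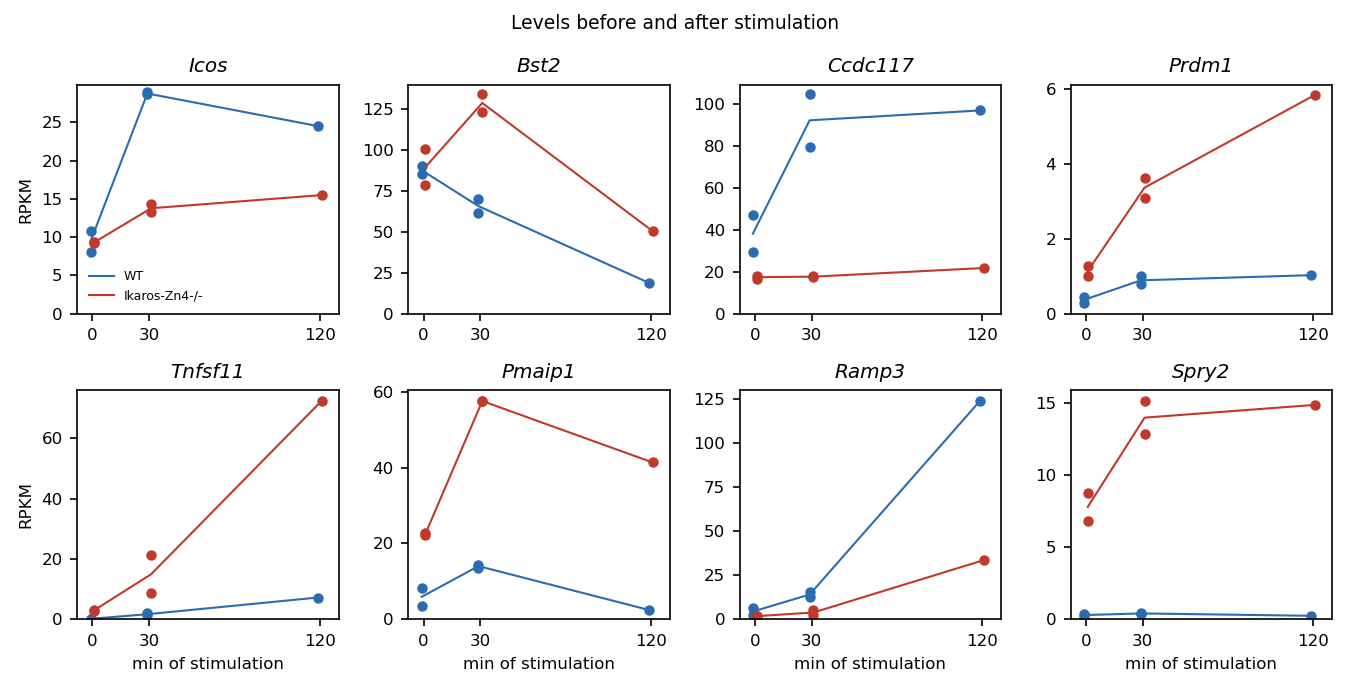
RPKM (y axis) at 0, 30 and 120 min of stimulation (x axis) for 8 called genes picked after their values were seen. Points are libraries, lines join the means, blue is WT and red Ikaros-Zn4-/-; Icos and Bst2 overlap at 0 min only, and Ccdc117 stays between 16.5 and 21.7 RPKM in the mutant.

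Whether the genotype difference moved between 30 and 120 min was asked with an interaction term in the 6 libraries, which leaves 2 residual degrees of freedom. No gene was called (limma, 908 genes at an unadjusted p below 0.05, smallest adjusted p = 0.191; limma-voom also called 0), while 13 were called when the spread of all 10 libraries was used. The time term itself was called for 5280 genes (41.8%), and 45.0% of the 180 genes changed between 30 and 120 min, 24 upward and 57 downward. At 30 min the higher genes had a median difference of 1.73 and the lower genes one of -1.20, against 1.57 and -1.10 at 120 min. Tmem176b had a difference of 5.56 at 30 min and 3.50 at 120 min, and Nrp1 4.30 and 3.81. The 4 genes with the smallest interaction p were the short RNAs Gm25809, Mir6997, Mir6991 and Mir7024, which a kit of this kind measures poorly.

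Some called genes lay next to each other in the genome. Within 50000 bases there were 7 neighbouring pairs of called genes, and 6 pairs moved in the same direction. Besides Tmem176b and Tmem176a these were Grb7 with Ikzf3, Cacnb3 with Rnd1, Pld2 with Mink1, Ube2l6 with Slc43a1 and Cln3 with Apobr. Grb7, an adaptor of receptor tyrosine kinases, lies 9529 bases from Ikzf3 and differed by 2.24, with 0.970 to 1.10 RPKM in WT and 6.80 to 11.4 RPKM in mutant cells. Cacnb3 and Rnd1 are 18892 bases apart. The pair that moved in opposite directions was Rcn3 (-0.86) and Fcgrt (1.48). Of the 180 called genes 142 were higher, so a shared direction is frequent among pairs of them wherever they lie. Neighbouring pairs were not counted over all genes, and nothing is read from these counts.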

How the data were processed

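RNA of sorted CD8+ T cells was sequenced in 10 libraries made with the TruSeq RNA kit v2 (single-end, HiSeq), per the labels' protocols. The authors deposited RPKM values for 12637 genes, 1 column per library. The tools TopHat2 2.0.12, TopHat and HTSeq 0.6.1 and the builds mm10 and GRCm38 are named in the submitters' processing notes; the sources used here do not give their roles, the annotation or any filter. Depth was recovered from the steps of the RPKM values with GENCODE M21 exon lengths, for which 12567 gene identifiers matched. Of values below 200 reads, 65.8% to 71.2% were within 0.01 of a whole read. Each depth was picked for a high share of this kind, so the 2% that a depth taken at random would give is no test of it. Recovered reads summed to 94.0% to 101% of the depth, so the depths are approximate. Depths were 4.50 to 13.3 M reads, so 1 read on a 1 kb transcript is 0.0750 to 0.222 RPKM.

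log2(RPKM + 1) was tested with limma 3.58.1 in R 4.3.3 (eBayes with intensity trend, two-sided, Benjamini-Hochberg over all genes, threshold 0.05). The stimulated difference was fitted to 6 libraries with genotype and time (3 residual degrees of freedom). Interactions and the resting difference were separate contrasts, the latter over all 10 libraries (4 residual degrees of freedom), with each single 120 min library assumed to vary like the others. The fits were tested on simulated data. Genes were named by rule: the 15 largest called differences in each direction with no overlap at either time and a mean of at least 2 RPKM in one genotype, every called list member, up to 3 members with the smallest p of lists without a call, Ikzf1, Nrp1, Tmem176a, Tmem176b and 4 genes per interaction; others are named from the lists or after their values were seen. The comparison, gene lists and rule were chosen with earlier results of these data known. Positions are from GENCODE M21; promoter windows are from RefSeq, with chromosome 18 not used. Alternatives changed the pseudocount, filter, scaling, trend, libraries, replicate block and spread estimate, and limma-voom was run on recovered reads. Figures used Python 3.11.15 and matplotlib 3.10.9.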

Additional observations from a re-analysis of the deposited data

Results flagged for a closer look

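For 3 named genes every mutant library lay on one side of the WT libraries at rest and on the other side at both times after stimulation, and the test of that difference over all genes was passed by none (limma, smallest adjusted p = 0.889). Dusp10, a phosphatase that inactivates stress kinases, was at 27.1 and 28.2 RPKM in WT and 45.4 and 48.8 RPKM in mutant cells at 0 min, and at 188, 177 and 105 RPKM against 125, 91.2 and 97.4 RPKM after stimulation, a stimulated minus resting difference of -1.29 (unadjusted p = 0.00075). Klf4, a transcription factor of quiescent T cells, was at 28.1 and 9.34 RPKM in WT and 8.58 and 5.10 RPKM in mutant cells at 0 min and at 84.3, 62.7 and 18.3 RPKM against 90.9, 91.9 and 47.4 RPKM after stimulation (1.84). Mta1, a NuRD subunit, had a stimulated minus resting difference of 0.48.

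For 2 named genes the mutant libraries lay on one side at 30 min and on the other at 120 min, a change that was also not called (limma, smallest adjusted p = 0.191). Genes with this pattern were not counted over all genes, and nothing is read from their number. Cst3 was at 15.3 and 17.0 RPKM in WT and 18.6 and 17.4 RPKM in mutant cells at 30 min and at 7.75 against 6.52 RPKM at 120 min, a change of -0.37 in the log2 difference. Car2 was at 3.28 and 3.27 RPKM in WT and 1.47 and 2.91 RPKM in mutant cells at 30 min and at 0.852 against 1.40 RPKM at 120 min, a change of 0.83.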

How the results depend on the processing

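The direction of all 180 genes called in stimulated cells held in every setting in which they were tested, although leaving out a library could not have changed it. Their number did not hold. It was 836 with limma-voom on recovered reads (541 higher, 295 lower), 546 with the spread of all 10 libraries, 576 among protein-coding genes only (a setting chosen after seeing the data), 0 at 30 min alone, and 0 to 46 when 1 library was left out. Counts of 181 to 269 were found with other pseudocounts, filters and scalings and without the trend. At rest the count of 300 became 688 with limma-voom, 34 with the spread of the 0 min libraries alone and 69 to 301 when 1 library was left out. The change between 30 and 120 min gave 13 genes with the spread of all 10 libraries and 0 to 0 when 1 library was left out. Stimulated against resting gave 0 to 3 when 1 library was left out. The causes were not tested, beyond the fewer samples in some fits.

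Groups share replicate numbers in the labels. Deviations from the group means of same-numbered WT and mutant libraries had r = 0.21 at 0 min and 0.28 at 30 min over 9462 genes, which with 2 numbers per time does not show pairing. With the replicate block 81 genes were called in stimulated cells (69 higher, 12 lower) and 0 at rest (1929 at an unadjusted p below 0.05, limma). Of the 52 named called genes, 45 passed in every fit of all 6 libraries but the block, under which 23 missed the threshold, among them Tmem176b (adjusted p = 0.0527), Tbx21 (0.0507), H2-DMa (0.0543), Itga4 (0.0569), Prdm1 (0.0725), Ly6a (0.0793) and Icos (0.0826). The lone 120 min libraries and 1 read being worth up to 0.173 RPKM per kb in stimulated libraries limit the low genes.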

Other observations

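Some called genes outside the lists and the naming rule belong to recognizable families, and all of them were chosen after their values were seen. The galectin genes Lgals1, which encodes galectin-1, and Lgals3, which encodes galectin-3, were higher in mutant cells. Lgals1 was at 67.3, 67.0 and 23.9 RPKM in WT and 191, 219 and 113 RPKM in mutant cells (1.79, limma, adjusted p = 0.0137), and Lgals3 at 0.418, 0.370 and 0.205 RPKM in WT and 5.52, 5.88 and 6.26 RPKM in mutant cells (2.37, adjusted p = 0.00539). Igf1r, the receptor of insulin-like growth factor, was at 4.02, 4.02 and 8.57 RPKM in WT and 25.3, 22.8 and 41.7 RPKM in mutant cells (2.26). Cdh1, which encodes E-cadherin, was at 0.104 to 0.132 RPKM in WT and 2.12 to 5.63 RPKM in mutant cells (2.14), and Ccr8, a chemokine receptor, at 0 to 0.224 RPKM in WT and 2.16 to 3.13 RPKM in mutant cells (1.77).

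Ass1, which encodes argininosuccinate synthase, and Gm5424 were both higher (1.57 and 1.70), and whether they share reads was not tested. Epas1, which encodes a hypoxia-inducible factor, differed by 2.59. Among genes lower in mutant cells, Insig1, which retains sterol regulators in the endoplasmic reticulum, was at 28.2, 27.7 and 19.4 RPKM in WT and 11.2, 10.3 and 9.31 RPKM in mutant cells (-1.19). Sesn1, a stress-responsive regulator of mTORC1, was at 60.6, 62.3 and 54.6 RPKM in WT and 27.6, 22.7 and 32.0 RPKM in mutant cells (-1.09), and Tnfrsf25, a death receptor family member of T cells, differed by -1.16.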
